A study of Mus musculus with 8 samples.

Results

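The 8 dual specificity phosphatase (DUSP) genes examined here are *Dusp1*, *Dusp2*, *Dusp4*, *Dusp5*, *Dusp6*, *Dusp10*, *Dusp14* and *Dusp16*, taken by symbol from the 24 *Dusp* genes among the 23284 gene symbols of the tables. RNA sequencing measured them in 4 groups of 2 libraries, naïve CD4 T cells and the effector subsets Th1, Th2 and Th17. All cells came from DO11.10 Tg mice, whose transgenic TCR recognises a peptide of OVA. The naïve cells were sorted from spleen as CD44low CD62Lhi CD4+ cells. The same kind of cell gave the effector cells, stimulated for 6 days with the peptide on irradiated BALB/c splenocytes from which T cells had been removed. Th1 cells were polarised with IL-12 (100 U/ml) beside IL-2 (30 U/ml) under IL-4 blockade (antibody at 1 μg/ml). Th2 cells received IL-4 (100 U/ml) beside IL-2 (30 U/ml) under IFN-γ blockade (antibody at 10 μg/ml). The Th17 cultures held IL-23, IL-6 and IL-1β (10 ng/ml of each) while both antibodies were present at 10 μg/ml. The methods give an age range for all mice of the study, and the labels give no age for these libraries. The labels also do not say whether the libraries of a group came from separate animals. The p-values therefore measure the spread between these libraries only. Naïve and effector cells differed in stimulation, cytokines and time in culture together, and these cannot be told apart.

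The DUSPs known as MAP kinase phosphatases remove phosphate from both the threonine and the tyrosine of the activation loop of MAP kinases, and so switch ERK, JNK or p38 off. Many of them are transcribed in response to the kinases they inactivate, which makes them negative feedback regulators of signalling downstream of the TCR and of cytokine receptors. *Dusp1*, *Dusp2*, *Dusp4* and *Dusp5* encode nuclear, inducible enzymes, *Dusp6* encodes a cytoplasmic phosphatase selective for ERK, *Dusp10* and *Dusp16* encode phosphatases that prefer JNK and p38, and *Dusp14* encodes a small atypical phosphatase without the MAP kinase-binding domain of the others.

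Promoter sequences from RefSeq (GRCm38.p6) were matched for 7 of the 8 genes, *Dusp4* being the one without. The 250 bases before the annotated start are shown for the 3 genes that were lower in effector cells (*Dusp1*, *Dusp2* and *Dusp10*) and for 2 that were higher (*Dusp5* and *Dusp14*), so that the start regions of genes with opposite changes can be read beside each other. They lie at chr17:26508473-26508722 (minus strand) for *Dusp1*, chr2:127335909-127336158 (plus strand) for *Dusp2*, chr1:184034131-184034380 (plus strand) for *Dusp10*, chr19:53528895-53529144 (plus strand) for *Dusp5* and chr11:84068358-84068607 (minus strand) for *Dusp14*. Of the higher genes with a sequence, the 2 shown held matches to the motifs searched, whereas *Dusp6* and *Dusp16*, not shown, held none. The motifs were chosen after the sequences were seen. Capitals mark matches, on either strand, to the motifs searched, and each sequence runs 5′ to 3′ toward the start.
Dusp1: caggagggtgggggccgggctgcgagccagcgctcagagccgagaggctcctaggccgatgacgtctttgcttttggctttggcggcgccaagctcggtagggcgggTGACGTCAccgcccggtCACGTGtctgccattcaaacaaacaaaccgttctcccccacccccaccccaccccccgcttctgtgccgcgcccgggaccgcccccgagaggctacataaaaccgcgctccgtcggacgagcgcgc
Dusp2: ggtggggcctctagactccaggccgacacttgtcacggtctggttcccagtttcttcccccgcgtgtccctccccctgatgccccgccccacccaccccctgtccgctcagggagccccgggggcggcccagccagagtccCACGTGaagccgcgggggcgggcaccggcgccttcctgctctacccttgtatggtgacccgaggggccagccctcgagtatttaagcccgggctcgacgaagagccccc
Dusp10: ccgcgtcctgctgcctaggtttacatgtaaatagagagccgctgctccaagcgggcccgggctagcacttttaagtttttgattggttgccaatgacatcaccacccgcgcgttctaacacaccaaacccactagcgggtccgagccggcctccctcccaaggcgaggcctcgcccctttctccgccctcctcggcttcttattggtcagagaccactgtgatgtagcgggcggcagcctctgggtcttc
Dusp5: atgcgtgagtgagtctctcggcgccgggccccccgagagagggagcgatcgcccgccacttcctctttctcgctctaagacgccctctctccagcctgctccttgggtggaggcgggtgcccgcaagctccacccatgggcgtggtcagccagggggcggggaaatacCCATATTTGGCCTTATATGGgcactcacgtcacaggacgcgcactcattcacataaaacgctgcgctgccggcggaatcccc
Dusp14: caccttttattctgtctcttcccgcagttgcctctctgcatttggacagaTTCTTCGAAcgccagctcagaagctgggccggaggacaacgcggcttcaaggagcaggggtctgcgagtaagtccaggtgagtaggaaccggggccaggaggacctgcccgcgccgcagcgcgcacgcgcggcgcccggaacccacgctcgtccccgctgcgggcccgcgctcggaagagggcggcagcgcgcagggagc

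The motifs searched were the cAMP response element TGACGTCA, the E box CACGTG, the AP-1 element TGANTCA, the ETS element CCGGAAG, the STAT palindrome TTCNNNGAA and, by name, the CArG box of serum response elements. Of 32851 promoter windows of the same length, 1.55% held the cAMP response element, 6.02% the E box, 6.75% AP-1, 6.91% ETS, 7.02% the STAT palindrome and 1.47% a CArG box. The *Dusp1* window held a cAMP response element at 143 to 136 bases before the start and an E box at 126 to 121. *Dusp2* had an E box at 109 to 104 bases, *Dusp14* a STAT palindrome at 200 to 192 bases, and *Dusp5* a pair of adjacent CArG boxes at 82 to 73 and 72 to 63 bases. These motifs do not overlap one another. The windows of *Dusp6*, *Dusp10* and *Dusp16* matched none of the 6. A match describes the letters of the window and does not show binding. The start that RefSeq gives lies upstream of the start in the tables for *Dusp5* and *Dusp10*.

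Levels are given as FPKM, the authors' Cufflinks estimate of fragments scaled for transcript length and library depth, which permits levels of different genes to be set side by side. Differences are on the log2(FPKM + 1) scale, which compresses changes at low FPKM, and were tested with limma on the 11198 genes whose FPKM averaged 1 or more, all 8 libraries in one fit, with Benjamini-Hochberg adjustment and a threshold of 0.05. All 8 DUSP genes were among those tested, each by 1 row of status OK. Depth, taken from the width of the FPKM confidence intervals, was 14463466 to 21058286 fragments per library. *Cd3e* was at 196 to 351 FPKM and *Cd4* at 187 to 373 in every library. *Ifng*, *Il13* and *Il17a* were each at or above 142.9 FPKM in both libraries of their own subset and at or below 12.0 in all other libraries. Over 15 markers of other cell types (of 16 listed, *Adgre1* being without a match by symbol), the summed FPKM was 117.6 and 81.7 in the naïve libraries and 17.3 to 44.7 in the effector libraries. Most of the naïve sum was *Cd8b1* (90.5 and 52.8, against 8.77 to 12.9 in effector libraries), with *Cd8a* at 2.94 and 1.77. *Siglech* and *Ncr1* were at 0 in every effector library. The other dendritic cell markers were higher in effector libraries. *Zbtb46* was at 0.13 to 0.83 FPKM against 0.06 and 0.04 in naïve cells. *Xcr1* was at 0.03 to 0.902 against 0.002 and 0. *Lyz2*, of macrophages and monocytes, was at 19.85 and 11.73 in Th2 and 9.55 and 10.02 in Th17 cells. It was at 6.94 and 6.325 in naïve and 4.25 and 4.15 in Th1 cells. *Csf1r* was lower in effector libraries, at 0.16 to 0.99 against 3.84 and 3.204. The granulocyte genes *Mpo* and *Elane* were at 2.46 to 4.89 FPKM in the effector libraries of replicate 1. In those of replicate 2 they were at 0 to 0.11. *S100a8*, the remaining granulocyte marker, overlapped between the replicates. Its range was 0.17 to 0.66 FPKM for replicate 1 of the effector cells and 0 to 0.44 for replicate 2. The part of these other cells in the differences between naïve and effector cells was not tested. In bulk RNA, fewer cells expressing a gene and less of its mRNA per cell cannot be told apart.

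All 8 genes differed between naïve and effector cells, in opposite directions. *Dusp4*, *Dusp5*, *Dusp6*, *Dusp14* and *Dusp16* were higher, and *Dusp1*, *Dusp2* and *Dusp10* lower, in each of the 3 effector subsets. In none of the 24 comparisons did the 2 groups overlap, but neither did they for 82.6%, 83.8% and 82.7% of all genes tested in Th1, Th2 and Th17 against naïve cells, so this absence of overlap was common as well. Of all genes tested, 33.8% were called higher and 33.5% lower in Th1 cells, 31.8% and 38.7% in Th2 cells, and 37.5% and 29.8% in Th17 cells, so that a call on its own was common. The median absolute log2 difference over the 8 genes was 2.24, 2.36 and 2.37 in Th1, Th2 and Th17 cells, against 0.63, 0.68 and 0.63 over all genes tested. The signed medians were 0.87, 1.33 and 0.84, against -0.01, -0.11 and 0.08. *Dusp4*, *Dusp14* and *Dusp16*, at naïve means of 0.78, 0.05 and 0.16 FPKM, passed the filter on mean FPKM only through the effector cells. The 8 genes were also chosen with earlier results of these data known, so these medians only describe them. The 5 higher and 3 lower calls stood in each subset with median scaling and with quantile normalization as well. Over all genes, quantile normalization moved the share of calls that were higher in Th17 cells from 55.7% to 44.2%. The 3 comparisons share the naïve libraries and are not independent of one another.

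**Figure D1:**
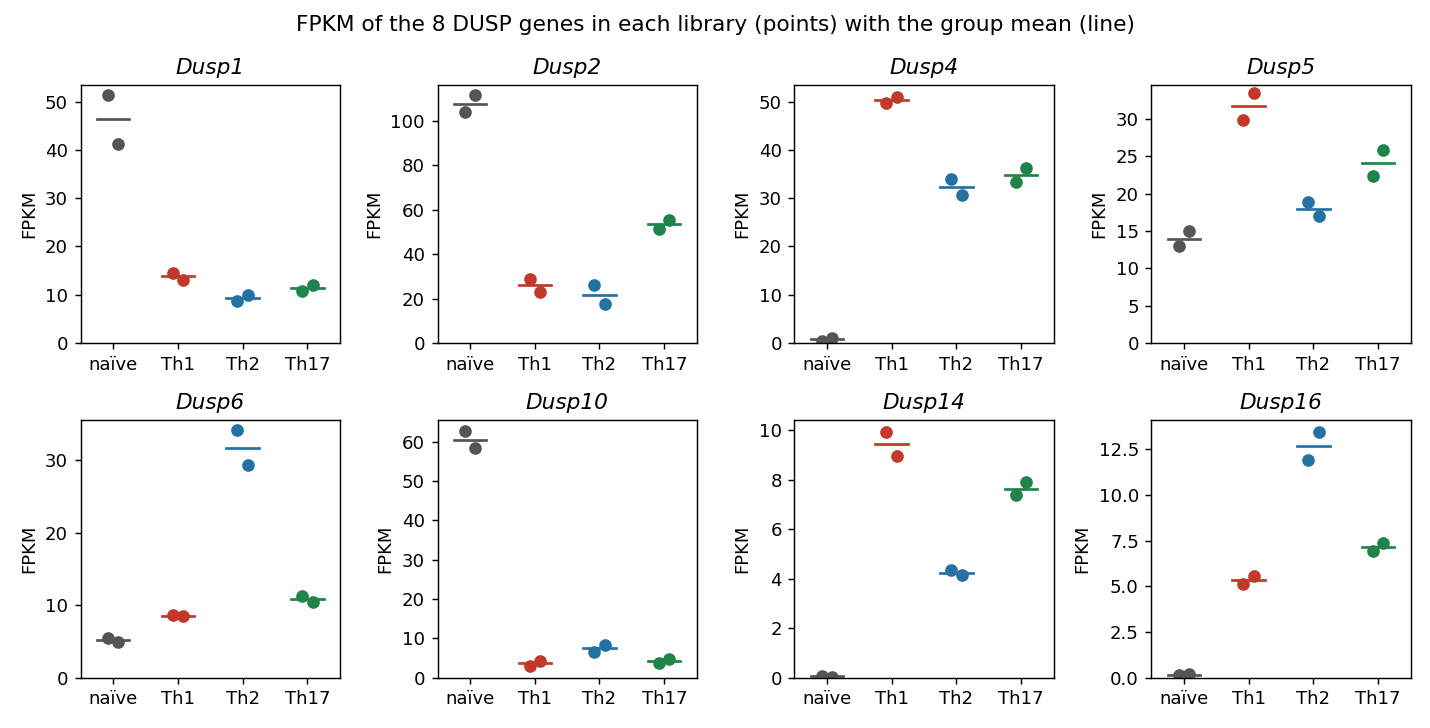
FPKM (vertical axis, linear and starting at 0, a separate scale for each gene) of the 8 DUSP genes in naïve, Th1, Th2 and Th17 cells, with points for the 2 libraries of a group and a line for their mean. *Dusp1*, *Dusp2* and *Dusp10* are highest in naïve cells, *Dusp4* and *Dusp14* are near 0 there and highest in Th1 cells, and *Dusp6* and *Dusp16* are highest in Th2 cells.

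*Dusp1*, which encodes MKP-1, a nuclear phosphatase of p38, JNK and ERK, lies at 26505591 to 26508472 of chromosome 17 (mm10). The naïve libraries held it at 51.4 and 41.3 FPKM, the Th1 libraries at 14.4 and 13.1, the Th2 libraries at 8.78 and 9.93 and the Th17 libraries at 10.8 and 12.1. Both naïve libraries stood above every effector library. The mean level was 3.36 times as high in naïve as in Th1 cells, 4.95 times as high as in Th2 cells and 4.06 times as high as in Th17 cells. On the log2(FPKM + 1) scale the differences from naïve cells were -1.67 (Th1), -2.19 (Th2) and -1.93 (Th17) (standard error 0.13, adjusted p = 3.88e-05, 8.7e-06 and 1.71e-05).

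*Dusp2* encodes PAC-1, a nuclear phosphatase first described in activated lymphocytes that acts on ERK and p38, and lies on chromosome 2 from 127336159 to 127338377. It had the highest FPKM of the 8 genes in naïve cells, at 103.8 and 111.5, against 28.8 and 22.95 in the Th1 pair, 25.9 and 17.5 in the Th2 pair and 51.4 and 55.5 in the Th17 pair. Th17 libraries lay between the naïve libraries and those of the other subsets. The differences from naïve cells were -2.02 in Th1 (adjusted p = 9.36e-05), -2.28 in Th2 (adjusted p = 4.33e-05) and -1.0 in Th17 (adjusted p = 0.00297), each with a standard error of 0.19. In Th17 cells the naïve level was 2.01 times the effector level, with 1.87 to 2.17 over the pairs of single libraries, whereas it was 4.16 times the Th1 level and 4.96 times the Th2 level.

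The other nuclear enzymes went the other way. *Dusp4*, which encodes MKP-2, a phosphatase of ERK and JNK, is on chromosome 8 from 34807610 to 34819894. It was at 0.49 and 1.07 FPKM in the naïve libraries, against 49.8 and 51.0 in the Th1 pair, 34.1 and 30.7 in the Th2 pair and 33.4 and 36.2 in the Th17 pair. The lowest effector library was 28.8 times the higher naïve library, and about 25 and 54 fragments lay behind the naïve values against 1945 to 3408 in the effector libraries. *Dusp4* had the largest differences from naïve cells of the 8 genes in each subset, 4.87 (Th1), 4.25 (Th2) and 4.35 (Th17) on the log2 scale (standard error 0.16, adjusted p = 6.11e-07, 8.92e-07 and 8.89e-07). With a pseudocount of 0.1 they were 5.93, 5.29 and 5.39, and *Dusp14* in Th1 (5.97) and Th17 cells (5.67) and *Dusp16* in Th2 cells (5.65) were then the largest.

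*Dusp5*, which encodes an ERK-specific nuclear phosphatase, lies on chromosome 19 from 53529318 to 53541322. Naïve libraries had 13.0 and 14.95 FPKM, Th2 libraries 18.9 and 17.03, Th17 libraries 22.4 and 25.9, and Th1 libraries 29.8 and 33.5. The groups followed the order naïve, Th2, Th17 and Th1 without overlap, but the steps were small. The difference from naïve cells was 1.13 in Th1 (adjusted p = 0.000179) and 0.75 in Th17 (adjusted p = 0.00133), with a standard error of 0.12. In Th2 cells it was 0.34 (adjusted p = 0.0393), and this call was lost under 7 of the 16 alternatives, among them leaving out naïve replicate 1 (adjusted p = 0.18), Th2 replicate 1 (0.167), Th2 replicate 2 (0.0591), Th1 replicate 1 (0.052) or Th1 replicate 2 (0.0517), over a range of 0.00577 to 0.18. An annotated antisense gene overlaps exons of *Dusp5*. The labels name a stranded library kit, the methods an unstranded one, and how strand was used in counting is not given in the sources used here, so reads of the antisense gene may be included.

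*Dusp6*, on chromosome 10 from 99263231 to 99267489, encodes MKP-3, the cytoplasmic phosphatase that holds back ERK. Th2 libraries had 34.1 and 29.3 FPKM, against 5.47 and 4.96 for naïve, 8.66 and 8.45 for Th1, and 11.25 and 10.4 for Th17. Both Th2 libraries stood far above the other 6. The differences from naïve cells were 2.39 in Th2 (adjusted p = 1.82e-06), 0.93 in Th17 (adjusted p = 0.000204) and 0.62 in Th1 (adjusted p = 0.00159), each with a standard error of 0.10, and the mean level in Th2 cells was 6.09 times that in naïve cells.

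The 2 phosphatases that prefer JNK and p38 moved in opposite directions. *Dusp10*, which encodes MKP-5, is on chromosome 1 from 184034461 to 184075636, and *Dusp16*, which encodes MKP-7, on chromosome 6 from 134715473 to 134792628. *Dusp10* was at 62.65 and 58.4 FPKM in the naïve libraries, against 3.02 and 4.31 in the Th1 pair, 6.655 and 8.25 in the Th2 pair and 3.78 and 4.77 in the Th17 pair. Every effector library was at or below 8.25, and the naïve mean was 16.5, 8.12 and 14.2 times the mean of Th1, Th2 and Th17 cells. The differences were -3.73, -2.87 and -3.55 in the same order (standard error 0.17, adjusted p = 2.85e-06, 8.18e-06 and 3.12e-06). *Dusp16* was at 0.12 and 0.19 FPKM in the naïve libraries, against 5.12 and 5.54 in the Th1 pair, 11.9 and 13.45 in the Th2 pair and 6.94 and 7.385 in the Th17 pair. About 9 and 22 fragments lay behind the naïve values, so its ratio to naïve cells is imprecise. It was higher by 2.45 (Th1), 3.56 (Th2) and 2.82 (Th17) on the log2 scale (standard error 0.10, adjusted p = 1.66e-06, 3.31e-07 and 8.27e-07), and by 4.42, 5.65 and 4.84 with a pseudocount of 0.1. Of the FPKM of these 2 genes together, *Dusp10* held 99.8% and 99.7% in the naïve libraries and 35.3% to 43.8% in the effector libraries. Their summed FPKM was 60.7 ± 2.98 in naïve, 8.996 ± 1.205 for the Th1 group, 20.1 ± 2.21 for Th2 and 11.4 ± 1.014 for Th17 (SD, n = 2).

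*Dusp14*, on chromosome 11 from 84048045 to 84068357, encodes MKP-6, an atypical DUSP known to bind the cytoplasmic tail of CD28. It was barely detected in naïve cells, at 0.07 and 0.04 FPKM or about 2 and 1 fragments, against 9.92 and 8.97 FPKM in the Th1 pair, 4.33 and 4.15 in the Th2 pair and 7.36 and 7.89 in the Th17 pair. All 6 effector libraries lay far above both naïve libraries. With so few fragments in naïve cells no ratio is given. The differences were 3.31 (Th1), 2.32 (Th2) and 3.03 (Th17) (standard error 0.09, adjusted p = 4.14e-07, 1.37e-06 and 4.78e-07), and a pseudocount of 0.1 gave 5.97, 4.84 and 5.67.

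**Figure D2:**
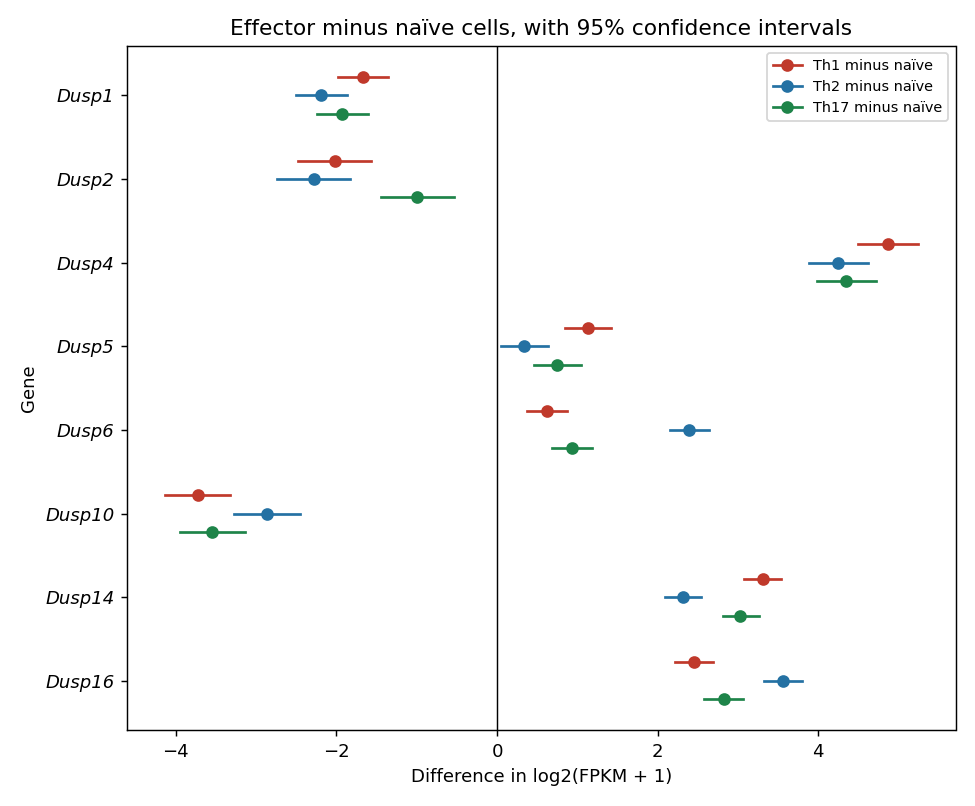
Difference in log2(FPKM + 1) (horizontal axis) between each effector subset and naïve cells for the 8 DUSP genes, with 95% confidence intervals from limma. Filled points passed an adjusted p of 0.05. The 3 genes left of 0 are *Dusp1*, *Dusp2* and *Dusp10*, and the interval nearest to 0 is that of *Dusp5* in Th2 cells, 0.05 to 0.63.

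The effector subsets differed from one another in 15 of the 24 comparisons of these genes, 13 of them involving Th2 cells. Against Th2 cells, Th1 cells were higher in 4 genes and lower in 3, where 27.4% and 16.9% of all genes tested were called in these directions. Th17 cells were higher than Th2 cells in 3 genes and lower in 3, against 31.7% and 12.0% of all genes. Between Th1 and Th17 cells none of the 8 was called higher in Th1, 2 were called lower, and the background was 9.17% and 16.0%. In each of these 3 comparisons the groups did not overlap for 7 of the 8 genes, against 73.8%, 74.8% and 62.9% of all genes tested. The median absolute differences of the 8 genes were 0.83, 0.70 and 0.34 in these 3 comparisons, against 0.34, 0.34 and 0.22 over all genes tested. Here too, these medians only describe genes chosen with earlier results of these data known. As deposited, the median of all genes was 0.108 higher in Th1 and 0.184 higher in Th17 than in Th2 cells. Of all calls, 61.8% were higher in Th1 than in Th2 cells, 72.6% in Th17 than in Th2 cells and 36.5% in Th1 than in Th17 cells. With median scaling these shares were 52.8%, 53.3% and 48.1%, and with quantile normalization 50.9%, 50.7% and 49.7%. Of the 8 genes, either scaling left 4 higher and 3 lower in Th1 than in Th2 cells, 2 higher and 3 lower in Th17 than in Th2 cells, and 3 higher and 1 lower in Th1 than in Th17 cells.

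*Dusp6*, *Dusp10* and *Dusp16* were highest among the effector subsets in Th2 cells. *Dusp6* was lower in Th1 than in Th2 cells by a log2 difference of -1.77 and lower in Th17 than in Th2 cells by -1.46 (standard error 0.10, adjusted p = 3.27e-05 and 0.000118). Its mean level in Th2 cells was 3.71 times that in Th1 and 2.93 times that in Th17 cells. For *Dusp16* the 2 differences were -1.11 and -0.74 (standard error 0.10, adjusted p = 0.000205 and 0.00159). For *Dusp10*, which was far below its naïve level in every subset, they were -0.86 and -0.68 (standard error 0.17, adjusted p = 0.0068 and 0.0182). Leaving out Th2 replicate 2 ended both *Dusp10* calls (adjusted p = 0.0521 and 0.113), as did leaving out Th17 replicate 1 for the second (0.101), over ranges of 0.00243 to 0.0521 and 0.00619 to 0.113 for the alternatives.

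*Dusp4*, *Dusp5* and *Dusp14* had their highest mean level in Th1 cells. *Dusp14* was higher than in Th2 cells by 0.99 in Th1 (adjusted p = 0.000263) and by 0.72 in Th17 (adjusted p = 0.00147), with a standard error of 0.09, a mean level of 2.23 and 1.80 times that in Th2 cells. *Dusp5* was higher than in Th2 cells by 0.79 in Th1 (adjusted p = 0.0024) and by 0.41 in Th17 (adjusted p = 0.0335, standard error 0.12). The second call was lost with median scaling (adjusted p = 0.132), with quantile normalization (0.108), with only the 2 groups in the fit (0.0566) and without Th2 replicate 1 (0.0588), Th2 replicate 2 (0.157) or Th17 replicate 2 (0.178), the range being 0.0192 to 0.178. *Dusp4* was 0.62 higher in Th1 than in Th2 cells (standard error 0.16, adjusted p = 0.0174). That call was lost with a pseudocount of 0.1 (adjusted p = 0.109) and without Th1 replicate 1 (0.067), Th1 replicate 2 (0.0835) or Th2 replicate 2 (0.102), the range being 0.00458 to 0.109. Between Th17 and Th2 cells *Dusp4* differed by 0.10, with a 95% confidence interval of -0.27 to 0.47 and overlapping libraries, and median scaling (-0.08) and quantile normalization (-0.06) turned its sign.

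*Dusp2* was higher in Th17 cells than in both other subsets. It was 1.29 higher in Th17 than in Th2 cells (adjusted p = 0.0024) and 1.03 higher than in Th1 cells, the Th1 minus Th17 difference being -1.03 (standard error 0.19, adjusted p = 0.00883). The mean level in Th17 cells was 2.46 times that in Th2 and 2.07 times that in Th1 cells. Without Th1 replicate 2 or Th17 replicate 2 the difference from Th1 cells no longer passed (adjusted p = 0.0622 and 0.0618, range 0.00485 to 0.0622). Th1 and Th2 libraries overlapped for *Dusp2*, with a difference of 0.26 (95% confidence interval -0.20 to 0.71, adjusted p = 0.313), which passed only without Th2 replicate 1 (adjusted p = 0.0493, range 0.0493 to 0.966). For *Dusp1*, 1 of the 3 steps among the subsets passed. It was 0.52 higher in Th1 than in Th2 cells (standard error 0.13, adjusted p = 0.0188), a call lost without Th1 replicate 1 (0.0971), Th1 replicate 2 (0.0555) or Th2 replicate 1 (0.0903), the range being 0.0137 to 0.0971. Its Th17 level lay between the others, 0.26 above Th2 (interval -0.05 to 0.57) and 0.25 below Th1 (interval of Th1 minus Th17 -0.06 to 0.57), and neither step passed.

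Th1 and Th17 cells gave the fewest calls. Beside *Dusp2*, *Dusp16* passed, at -0.37 in Th1 minus Th17 (standard error 0.10, adjusted p = 0.037), but it lost this call under 11 of the 16 alternatives, the range being 0.0145 to 0.181. Leaving out any one Th1 or Th17 library, or naïve replicate 2, was enough (adjusted p = 0.181 and 0.101 without Th1 replicates 1 and 2, 0.102 and 0.174 without Th17 replicates 1 and 2, 0.0503 without naïve replicate 2). *Dusp4* (0.52, interval 0.15 to 0.89), *Dusp5* (0.38, interval 0.09 to 0.67), *Dusp14* (0.28, interval 0.05 to 0.50) and *Dusp6* (-0.31, interval -0.56 to -0.06) had adjusted p-values of 0.0511 to 0.0772, which missed the threshold. *Dusp4*, *Dusp5* and *Dusp14* passed with median scaling (adjusted p = 0.0272, 0.0207 and 0.0353) and with quantile normalization (0.0103, 0.0278 and 0.0426), and *Dusp4* also with only the 2 groups in the fit (0.0211) and without naïve replicate 1 (0.0138) or 2 (0.0136). For *Dusp10* the difference was -0.19 (interval -0.59 to 0.22) with overlapping libraries. With the replicate number as a block, 5 of the 8 genes were called in this comparison in place of 2, the added ones being *Dusp4* (adjusted p = 0.0379), *Dusp5* (0.0365) and *Dusp6* (0.0255). Over all alternatives these ranged from 0.0103 to 0.23, 0.0207 to 0.268 and 0.0255 to 0.282, and for *Dusp14* from 0.0353 to 0.322.

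**Figure D3:**
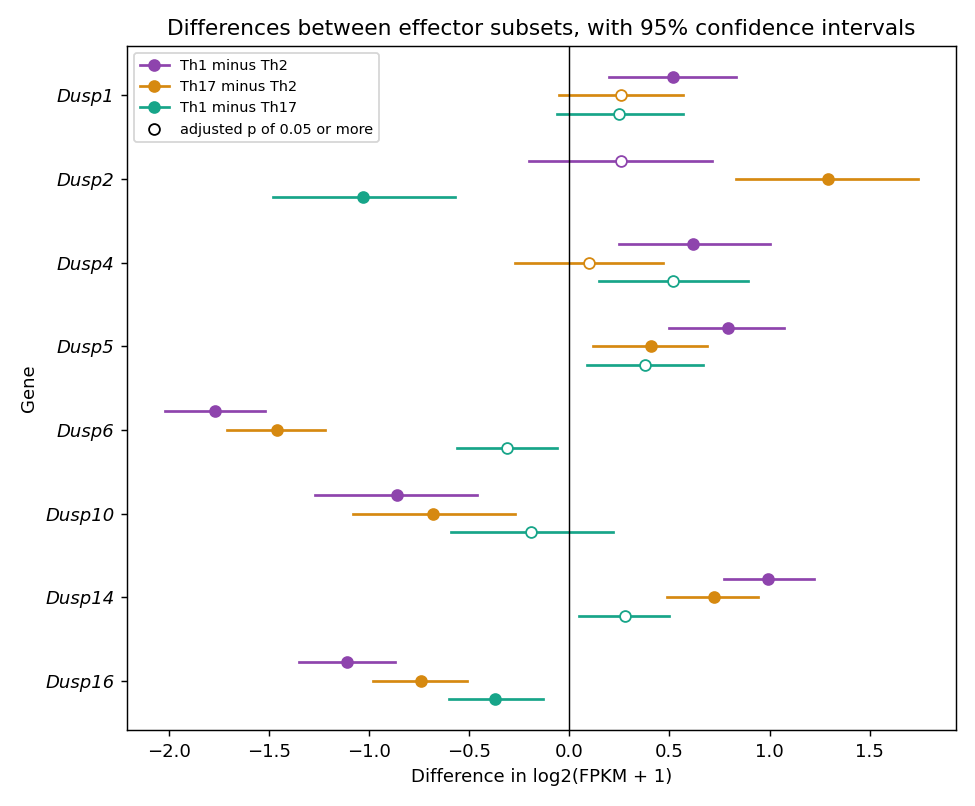
Difference in log2(FPKM + 1) (horizontal axis) between pairs of effector subsets for the 8 DUSP genes, with 95% confidence intervals from limma; filled points passed an adjusted p of 0.05 and open points did not. The points for Th1 and Th17 minus Th2 lie left of 0 for *Dusp6*, *Dusp10* and *Dusp16*. They lie right of 0 for *Dusp1*, *Dusp2*, *Dusp4*, *Dusp5* and *Dusp14*. The intervals of *Dusp1* and *Dusp4* in Th17 minus Th2 and of *Dusp2* in Th1 minus Th2 cross 0.

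Added together, the 8 genes had a summed FPKM of 234.6 ± 3.27 in naïve, 148.7 ± 1.21 for the Th1 group, 137.5 ± 10.1 for Th2 and 153.7 ± 9.10 for Th17 (SD, n = 2). This was 71.8% of the FPKM of all 24 *Dusp* genes in naïve cells and 61.4% to 62.9% in the effector subsets. *Dusp1*, *Dusp2* and *Dusp10* held 91.9% and 90.9% of it in the naïve libraries and 27.3% to 45.2% in the effector libraries. *Dusp4*, *Dusp14* and *Dusp16* held 0.29% and 0.56% in the naïve libraries and 32.2% to 44.3% in the effector libraries. These shares describe the libraries and were not tested.

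The leading gene differed between subsets. In Th1 cells *Dusp4* was first, with 33.9% ± 0.82 of the summed FPKM, followed by *Dusp5* with 21.3% ± 1.94. In Th17 cells *Dusp2* was first, as in naïve cells, with 34.8% ± 0.18 against 45.9% ± 2.95 in naïve cells. In Th2 cells *Dusp4* (23.6% ± 0.02) and *Dusp6* (23.0% ± 0.78) differed by less than this spread. *Dusp6* held 5.75% ± 0.05 in Th1 and 7.07% ± 0.80 in Th17 cells (SD, n = 2 throughout). Within the 4 nuclear enzymes, *Dusp4* and *Dusp5* together held 8.74% ± 1.05 in naïve, 67.5% ± 3.71 for the Th1 group, 62.0% ± 2.21 for Th2 and 47.6% ± 0.44 for Th17, while the sum of the 4 was 168.7, 121.7, 81.4 and 123.8 FPKM in the same order.

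**Figure D4:**
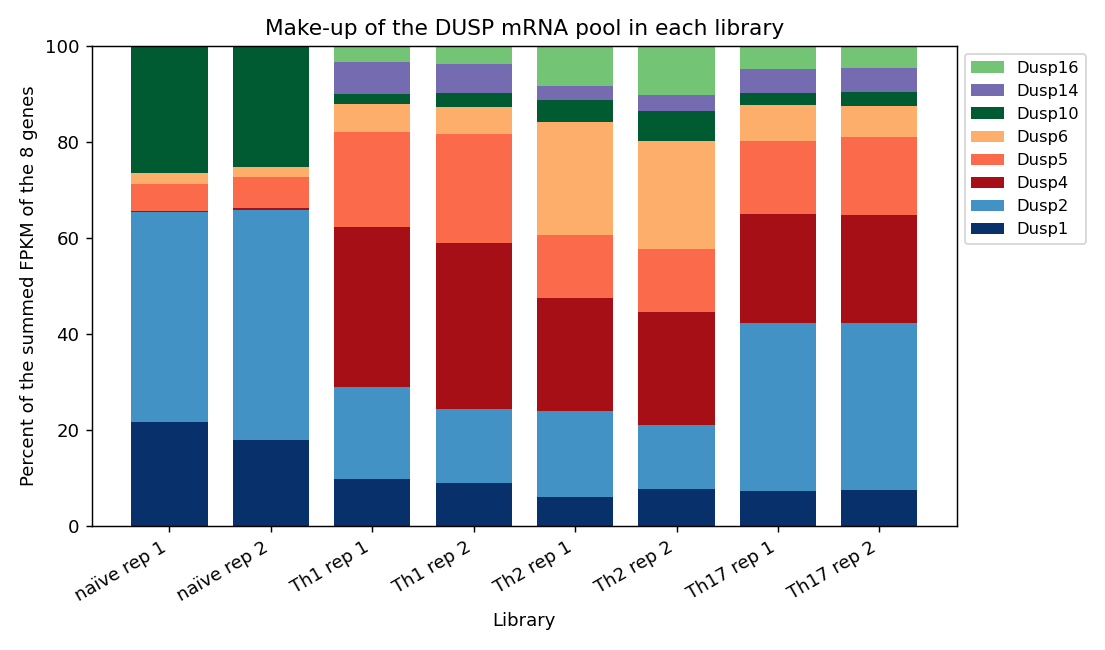
Share of the summed FPKM of the 8 DUSP genes (vertical axis, percent) held by each gene in each of the 8 libraries (bars). *Dusp2*, *Dusp10* and *Dusp1* fill 91.9% and 90.9% of the naïve bars, and *Dusp4* is present in every effector bar at 22.6% to 34.5%.

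Among the MAP kinase genes, not all of which encode substrates of these enzymes, *Mapk3* (ERK1) and *Mapk6* were higher than in naïve cells in all 3 subsets. *Mapk8* (JNK1) was lower in all 3. The 4 widest ranges among groups belonged to the 4 p38 isoforms. *Mapk14*, the gene of p38α, was at 53.5 and 50.1 FPKM in naïve, 32.1 and 37.8 in the Th1 pair, 10.4 and 8.82 in the Th2 pair and 20.4 and 22.9 in the Th17 pair, and was lower than in naïve cells, with differences of -0.56, -2.32 and -1.22 (adjusted p = 0.00641, 5.13e-06 and 0.00013). *Mapk11* (p38β) was lower in Th1 cells (-1.97, adjusted p = 6.96e-06) and in Th2 cells (-0.61, adjusted p = 0.00203), and differed by -0.08 in Th17 cells (adjusted p = 0.553). *Mapk13* (p38δ), at 0.07 and 0.04 FPKM in naïve cells, passed the filter on mean FPKM only through the effector cells. It was highest in Th1 cells (4.64 and 5.69), and its calls in Th2 (0.38) and Th17 cells (1.04) were lost with quantile normalization, which gave -0.19 and 0.10. *Mapk12* (p38γ) was highest in Th2 cells (9.20 and 7.84), at 4.78 and 3.54 in Th17 and at 0.15 and 0.12 in Th1 cells. Between Th17 and Th2 cells *Mapk11* and *Mapk14* were higher in Th17 as deposited and with either scaling, *Mapk13* was higher as deposited and with median scaling, and *Mapk12* was lower in all 3.

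Of 7 MAP kinase kinase genes, all tested, 3 were higher (*Map2k1*, *Map2k3* and *Map2k5*) and 2 lower (*Map2k6* and *Map2k7*) in Th1 than in naïve cells. In Th2 cells *Map2k1*, *Map2k3* and *Map2k6* were higher and *Map2k4* and *Map2k7* lower. In Th17 cells *Map2k1*, *Map2k3*, *Map2k4* and *Map2k6* were higher and *Map2k7* lower. Calls were common over all genes tested too. There, 33.8% were higher and 33.5% lower in Th1 cells, 31.8% and 38.7% in Th2 cells, and 37.5% and 29.8% in Th17 cells. *Map2k1*, which encodes the ERK kinase MEK1, was higher by 1.06, 0.95 and 1.16 in Th1, Th2 and Th17 cells (adjusted p = 6.58e-05, 9.41e-05 and 3.72e-05). *Map2k6*, which encodes an activator of p38, was at 8.05 and 8.26 FPKM in naïve, 5.91 and 5.83 in the Th1 pair, 35.0 and 41.1 in the Th2 pair and 20.3 and 20.9 in the Th17 pair. Its level was highest in Th2 cells, where it was 2.09 above naïve cells (adjusted p = 2.59e-06). *Map2k3*, another p38 activator, was higher in all 3 subsets by 1.19, 0.78 and 0.51 (adjusted p = 0.000146, 0.00109 and 0.00887), and *Map2k4* ranged from -0.38 in Th2 to 0.32 in Th17 cells. Among the MAP3 kinase genes, *Map3k2*, *Map3k3* and *Map3k11* were lower in all 3 subsets, *Map3k8* was higher in all 3, *Map3k5* was higher in Th1 and Th17 cells, and *Map3k1* and *Map3k4* were higher in Th2 cells. *Map3k8*, which encodes TPL2, was at 1.25 and 1.09 FPKM in naïve cells and at 38.5 to 55.4 in effector cells, with differences of 4.64, 4.23 and 4.45 (adjusted p = 1.44e-07, 1.6e-07 and 1.75e-07). *Map3k3* was lower in all 3 subsets (-0.96, -1.58 and -1.04), *Map3k1* was higher only in Th2 cells (0.78, adjusted p = 0.0121) and lower in Th1 and Th17 cells (-0.67 and -1.02, adjusted p = 0.0234 and 0.00378), and *Map3k5* was higher by 1.41 in Th1 and 0.72 in Th17 cells (adjusted p = 0.000981 and 0.021). Median scaling ended the lower calls of *Mapk7* in Th1 cells (adjusted p = 0.0621) and of *Mapk9* (0.353), *Map2k7* (0.101), *Araf* (0.144) and *Map3k7* (0.247) in Th2 cells, and quantile normalization ended those of *Mapk9* (0.311) and *Map3k7* (0.21).

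Of the 16 further *Dusp* genes, not all of which encode MAP kinase phosphatases, 7 were tested, with *Dusp3*, *Dusp19* and *Dusp22* higher and *Dusp11*, *Dusp12* and *Dusp28* lower in all 3 subsets, and *Dusp7* higher in Th1 and lower in Th2 and Th17 cells. *Dusp22*, an atypical DUSP that acts in T cell receptor signalling, was at 4.94 and 3.66 FPKM in naïve cells and at 20.0 to 34.9 in effector cells, and *Dusp3* rose from 0.03 and 0.12 to between 2.235 and 5.01. *Dusp12* and *Dusp28* were lower in all 3 subsets, with differences of -1.61 and -1.68 in Th1 cells (adjusted p = 6.59e-05 and 7.85e-06). All 4 tested of the 6 Sprouty and Spred genes, which encode inhibitors of RAS and ERK activation, were higher in each subset. Of all genes tested, 33.8%, 31.8% and 37.5% were called higher in Th1, Th2 and Th17 cells, and 33.5%, 38.7% and 29.8% lower. These shares stand beside the calls of the further *Dusp* genes as well. *Spry1*, *Spred3*, *Dusp3* and the tyrosine phosphatase gene *Ptpn5*, at naïve means of 0.83, 0.15, 0.08 and 0.08 FPKM, passed the filter on mean FPKM only through the effector cells. *Spry1* lost its call in Th2 cells with quantile normalization (0.22, adjusted p = 0.251). *Spred3* was at 0.15 and 0.16 FPKM in naïve and at 12.7 to 23.4 in effector cells, *Spred2* was higher by 1.56, 2.06 and 1.76, *Spred1* by 1.05, 1.29 and 1.12, and *Spry1* by 2.17, 0.77 and 1.63. Of 3 tyrosine phosphatases that act on ERK and p38, 2 were tested. *Ptpn5* was higher by 3.11, 1.17 and 3.13 in Th1, Th2 and Th17 cells, and *Ptpn7* by 0.70 in Th1 and 0.75 in Th17 cells (adjusted p = 0.00757 and 0.00541), its difference in Th2 cells being 0.17 (adjusted p = 0.392).

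Genes that respond to ERK and to immediate early signalling were called in both directions. Of the 16 tested of 18, 6, 7 and 7 were called higher than in naïve cells in Th1, Th2 and Th17 cells. In the same order 7, 6 and 5 were called lower, the 5 being *Egr1*, *Fos*, *Jun*, *Ier2* and *Ier5*. The shares of all genes tested were 33.8%, 31.8% and 37.5% higher and 33.5%, 38.7% and 29.8% lower, so calls in both directions were common. *Etv5*, an ETS factor, was at 59.4 and 75.55 FPKM in Th1 cells, against 0.51 and 0.39 in naïve, 4.79 and 4.86 in Th2 and 1.23 and 1.28 in Th17 cells, where its difference from naïve cells, 0.64, turned to -0.37 with quantile normalization (adjusted p = 0.00333 and 0.0277). *Ier3* was at 0.25 and 0.20 in naïve cells and at 32.7 to 94.1 in effector cells. *Fosl2*, an AP-1 subunit, was at 0.82 and 0.68 in naïve cells and at 40.1 to 54.55 in effector cells. *Phlda1*, called higher in Th2 (0.54) and Th17 cells (0.53), was not called in Th2 cells with quantile normalization (0.27) nor in Th17 cells with median scaling (0.50) or quantile normalization (adjusted p = 0.995). *Atf3*, a stress-induced transcription factor, was at 0.12 and 0.05 in naïve and at 10.6 to 26.4 in effector cells. Naïve means of *Etv5*, *Ier3*, *Fosl2* and *Atf3* were 0.45, 0.22, 0.75 and 0.09 FPKM. These genes passed the filter on mean FPKM only through the effector cells, so their higher calls only describe them.

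For each of the 8 genes, the genes with the nearest profile over the 8 libraries were found by the root mean square difference of log2(FPKM + 1) after centring each gene on its own mean. The nearest were *Rhoh* (0.094) and *Slc9a9* (0.108) for *Dusp1*, *Nfe2l2* (0.203) and *Mdn1* (0.233) for *Dusp2*, and *Tk1* (0.177) and *Cdca8* (0.187) for *Dusp4*. They were *Aph1a* (0.077) and *Lmnb2* (0.093) for *Dusp5*, *Mmp13* (0.126) and *Tuba8* (0.138) for *Dusp6*, and *Rtn4rl1* (0.142) and *Axin2* (0.217) for *Dusp10*. For *Dusp14* they were *Cdc6* (0.126) and *Eme1* (0.155), and for *Dusp16* *Samd11* (0.107) and *Prep* (0.112). Within the 8 the nearest pair was *Dusp1* and *Dusp2*, at 0.527. The 8 hold far fewer candidates than all genes tested, so this distance cannot be set against those above. The standard deviation of the 8 genes over the libraries was 0.433 (*Dusp5*) to 1.963 (*Dusp4*) on the same scale. The points of a profile share their libraries and group means, and the nearest of many genes is near by selection, so these values describe the libraries only.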

How the data were processed

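Per the labels and the methods, the authors aligned reads to mm10 with TopHat 1.3.2 over Bowtie 0.12.8 and deposited FPKM per gene with a confidence interval from Cufflinks 2.0.2. The annotation is not given in the sources used here.

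FPKM of rows with the same symbol were summed. limma (version 3.58.1, R 4.3.3, mean-variance trend) was fitted to log2(FPKM + 1) as 4 group means, two-sided, with Benjamini-Hochberg adjustment over the 11198 genes tested, and was tested on simulated data. Fragments behind a value were inferred from its confidence interval and cover counting error only. Exon overlaps came from GENCODE (GRCm38). Tables and figures used Python 3.11.15, pandas 2.3.3, numpy 2.4.6 and matplotlib 3.10.9.

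Replicate numbers come from the labels, which do not say what a number marks. Over the 6 pairs of groups, the differences between replicates 1 and 2 correlated across genes at 0.138 to 0.294.

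The 8 genes and the gene lists were chosen with earlier results of these data known, and the motifs after the sequences were seen. Genes named are the 8, cell type markers, up to 4 of each MAP kinase list with the widest range of group means, the genes behind a count of 5 or fewer, and the 2 nearest profiles of each of the 8 (not the other 7, and no predicted or clone-named gene). Some genes of the MAP kinase and MAP3 kinase lists are not reported here, so no counts are given for those lists. Alternatives were a pseudocount of 0.1, no filter, a mean FPKM of at least 5, median scaling, quantile normalization, only the 2 groups compared, no trend, the replicate block and each library left out.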

Additional observations from a re-analysis of the deposited data

Results flagged for a closer look

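The change from naïve cells differed between effector subsets in 15 gene and subset pairs, by a limma test of the subsets against each other. In Th1 minus Th2 cells the log2(FPKM + 1) differences were 0.52 for *Dusp1*, 0.62 for *Dusp4*, 0.79 for *Dusp5*, -1.77 for *Dusp6*, -0.86 for *Dusp10*, 0.99 for *Dusp14* and -1.11 for *Dusp16*. In Th17 minus Th2 cells they were 1.29 for *Dusp2*, 0.41 for *Dusp5*, -1.46 for *Dusp6*, -0.68 for *Dusp10*, 0.72 for *Dusp14* and -0.74 for *Dusp16*. In Th1 minus Th17 cells they were -1.03 for *Dusp2* and -0.37 for *Dusp16*. Some of these calls were lost under at least 1 alternative. These were *Dusp1*, *Dusp4* and *Dusp10* in Th1 minus Th2, *Dusp5* and *Dusp10* in Th17 minus Th2, and both in Th1 minus Th17 cells. *Dusp16* lost its call there under 11 of the 16 alternatives. Over all genes tested, 27.4% and 16.9% were called higher and lower in Th1 minus Th2, 31.7% and 12.0% in Th17 minus Th2, and 9.17% and 16.0% in Th1 minus Th17 cells. Groups of 2 libraries were too small for a test of single outlying libraries.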

How the results depend on the processing

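Of 768 values for the 8 genes under 16 alternatives, 715 kept their direction and side of the threshold, 36 lost and 13 gained a call, and 4 turned sign. Those 4 were not called before or after: *Dusp4* in Th17 against Th2 cells, -0.08 with median scaling and -0.06 with quantile normalization, and, with each library left out, *Dusp2* in Th1 against Th2 cells (-0.01 to 0.53) and *Dusp10* in Th1 against Th17 cells (-0.39 to 0.01). The number of the 8 called in Th1 against Th17 cells, 2, became 1 with a pseudocount of 0.1, with no filter and with a mean FPKM of at least 5, 4 with either scaling, 5 with the replicate block, and 0 to 3 with each library left out (0 without Th1 or Th17 replicate 2, 1 without Th1 or Th17 replicate 1). The pairing by replicate number changed no other call of the 8 genes. For all genes tested, leaving out each library gave 3106 to 4936 calls in Th1 against Th2 cells (4961 with all libraries), the lowest being 3106 without Th1 replicate 2 and 3208 without Th2 replicate 2. It gave 2738 to 4876 in Th17 against Th2 cells (4885), the lowest being 2738 without Th17 replicate 2 and 3037 without Th2 replicate 2. In Th1 against Th17 cells (2815) it gave 1558 to 2759, with 1558 to 1734 without any one Th1 or Th17 library, and a mean FPKM of at least 5, which tests fewer genes, gave 1793. The summed FPKM of the 8 genes became 229.5 in naïve and 148.0 in Th2 cells with median scaling, and 256.2 in naïve, 144.9 in Th1 and 144.3 in Th17 cells with quantile normalization. The median of all genes in Th2 against naïve cells was -0.112 as deposited, 0.002 with median scaling and -0.127 with quantile normalization. Apart from the fewer genes or libraries, the causes of these changes were not tested. Depth limits *Dusp14* in naïve cells most, at 1 and 2 inferred fragments, followed by *Dusp16* and *Dusp4*.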
